A study of Mus musculus with 8 samples.

Results

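The genes described here encode the proteins of the cytosolic ribosome. They were chosen by name among the 32285 features of the expression matrices, as every symbol that begins Rpl or Rps and continues with a digit, together with Rplp0, Rplp1, Rplp2 and Rpsa, and without the Rps6k kinases and the symbols that contain -ps. The rule found 86 genes. Of these, 46 are standard large subunit proteins and 31 are standard small subunit proteins, called core members below. The other 9 are paralogues or neighbours in name: Rpl22l1, Rpl36al, Rpl7l1, Rps27l, Rps27rt, Rpl39l, Rpl3l, Rpl10l and Rps19bp1, which encodes a partner of Rps19 and no subunit. The rule used no measured value. The 5 symbols with -ps that the matrices list held between 0.00423% and 0.00548% of a library's UMIs (unique molecular identifiers, each counting 1 captured RNA molecule).

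A ribosome pairs a large subunit, which joins amino acids, with a small subunit, which reads the mRNA. Most of their proteins are needed in equal numbers, and the mRNAs of these proteins are among the most abundant in any cell. Most of these mRNAs start with a cytosine followed by a run of pyrimidines, the 5′ terminal oligopyrimidine (TOP) tract, through which growth signals set their translation and stability. Resting lymphocytes are small cells with few ribosomes, and they build many more when antigen activates them to grow and divide.

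The cells were live immune cells sorted from deep cervical lymph nodes of C57BL/6 mice at day 20 after an injection into the brain, and the RNA was captured in droplets with 10x Genomics 5′ V2 chemistry, 1 library per group. The depleted anti-CTLA-4 library came from mice given anti-CD20 antibody, which removes B cells, GL261 glioma cells and anti-CTLA-4, an antibody against an inhibitory receptor of T cells. The depleted isotype library came from mice given anti-CD20, GL261 cells and isotype control IgG. The anti-CTLA-4 library came from wild-type mice with GL261 cells and anti-CTLA-4, and the isotype library from wild-type mice with GL261 cells and isotype IgG. The saline control library came from wild-type mice given DPBS in place of GL261 cells. GL261 is a mouse glioma line grown in C57BL/6 hosts, and which antibody, if any, the saline control mice received was not given in the sources used here. How many mice were pooled in a library was not given in the sources used here. With 1 library per group, a difference between libraries has no replicate check, and its interval covers counting error only.

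Short windows around the annotated transcription start are shown for members on which the results turn, because the letters at the start of the transcript define a TOP mRNA. Each line has 20 bases before the start and 25 bases from it on, 5′ to 3′ on the gene's strand, from the RefSeq promoter table. Capitals mark a run of at least 5 pyrimidines that begins with C within 10 bases of the start.
Rplp0 (GRCm38.p6, chr5:115559447-115559491, plus strand): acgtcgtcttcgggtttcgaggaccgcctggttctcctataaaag
Rpl12 (GRCm38.p6, chr2:32961692-32961736, plus strand): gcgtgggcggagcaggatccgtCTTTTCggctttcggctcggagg
Rps27 (GRCm38.p6, chr3:90213624-90213668, minus strand): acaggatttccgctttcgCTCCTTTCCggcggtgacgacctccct
Rps12 (GRCm38.p6, chr10:23787185-23787229, minus strand): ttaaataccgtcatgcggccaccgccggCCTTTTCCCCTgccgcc
Rps27l (GRCm38.p6, chr9:66946066-66946110, plus strand): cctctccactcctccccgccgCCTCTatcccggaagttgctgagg
Rps19bp1 (GRCm38.p6, chr15:80264282-80264326, minus strand): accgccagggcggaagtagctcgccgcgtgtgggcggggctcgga

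Rplp0 encodes the base of the P stalk and Rpl12 the protein beside it, and both had among the largest T over B differences. Rps27 was among the members that fell most in germinal centre and cycling cells, Rps12 stood apart from the other small subunit members in several contrasts, and the paralogue Rps27l and Rps19bp1 went the other way from most core members in the T over B and cycling contrasts. Such a run stood near the first listed start of 30 of the 57 core members with an entry (52.6%) and of 6 of the 9 members outside the core lists (66.7%). Among all 27025 symbols of the table, 7861 had one (29.1%), and among the 78 mitochondrial ribosomal protein genes 25 of 69 with an entry (36.2%). The run was searched on the transcribed strand only, and a window without one says only that these letters are not near the annotated start.

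The 5 libraries kept 8300 to 10591 cells each, with 4257 to 6018 UMIs in the median cell. Pairs of libraries shared 109 to 164 cell barcodes. Anti-CD20 left B clusters at 0.933% of cells under anti-CTLA-4 and 0.675% under isotype IgG, against 47.6% to 50.8% in the other 3. The cells were clustered without the member genes and named from fixed markers: the B lineage markers, Cd79a, Cd79b, Ms4a1 and Ebf1 among them, summed to 78.4 UMIs per 10000 in follicular B-like cells and to 0.0877 in naive CD4 T-like cells. The class called experienced CD4 T-like was 1 cluster led by Il2, Tnfsf11 and genes of follicular helper cells (Tox2, Pdcd1), and the naive CD4 T-like class held small clusters led by interferon response genes and by Myb and Sox4. Classes that no marker list named are called by their leading genes (Fcrl5-led B, Lad1-led T, Malat1-high). Mitochondrial genes held 1.02% of UMIs in the isotype library and 1.79% to 2.09% in the other 4.

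Over all kept cells, 84 of the 86 members reached at least 100 UMIs, and the 10 most abundant held 23.7% of all member UMIs. Levels are UMIs per 10000 UMIs of a library, so they count captured molecules and are not divided by transcript length, and how capture differs between genes was not tested. Rps24 (GRCm38.p6, chr14:24490678-24496960), a small subunit protein mutated in some human patients with Diamond-Blackfan anaemia, was highest, with 106, 112, 96.6, 103 and 101 UMIs per 10000 in the depleted anti-CTLA-4, depleted isotype, anti-CTLA-4, isotype and saline control libraries. Rpl13, a large subunit protein, followed with 90.6, 89.2, 82.2, 85.4 and 82.7. Rpsa, which is also known as the laminin receptor, had 82.3, 80.9, 74.9, 72.6 and 69.5. All 3 were higher in both depleted libraries than in the saline control library, and Rps24 and Rpl13 were lowest in the anti-CTLA-4 library, Rpsa in the saline control library. The other 7 were Rps16, Rps20, Rplp0, Rps7, Rpl19, Rps4x and Rps15a, at 71.1 to 61.2 UMIs per 10000 over all libraries.

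The P stalk recruits elongation factors to the ribosome. Its base Rplp0 had 76.2, 76.9, 63.3, 65.1 and 62.2 UMIs per 10000 in the depleted anti-CTLA-4, depleted isotype, anti-CTLA-4, isotype and saline control libraries, Rplp1 58.6 over all libraries and Rplp2 28.5. Rpl5 and Rpl11 form the 5S particle with the 5S ribosomal RNA and bind MDM2 when it is not built into ribosomes. Rpl11 had 41.5 UMIs per 10000 and Rpl5 15.9. Members of 1 particle thus differed in their UMIs. Outside the core lists, Rpl22l1 had 8.82 and Rpl36al 7.24, whereas Rps27rt, whose sequence is nearly identical to that of Rps27 so that reads may be split between them, had 1.01. Rps27l had 0.682, Rpl7l1 0.462 and Rps19bp1 0.190. The paralogues known from testis and muscle were near or at 0, with 155 UMIs of Rpl39l, 15 of Rpl3l and 0 of Rpl10l. The highest library was 1.17 times the lowest in the median core member (range 1.05 to 1.396), and 22 of 77 core members had their lowest library at 0.8 times the highest or below, against 42.5% of the 3816 other genes with at least 10000 UMIs.

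Together the members held 31.93% of the UMIs of kept cells in the depleted anti-CTLA-4 library (95% exact binomial interval 31.91% to 31.94%) and 32.85% in the depleted isotype library (32.84% to 32.87%). The share was 28.23% in the anti-CTLA-4 library (28.21% to 28.24%), 30.46% in the isotype library (30.44% to 30.47%) and 29.94% in the saline control library (29.93% to 29.95%). The depleted libraries were thus highest. They were also nearly all T cells: T clusters made up 92.98%, 93.2%, 47.7%, 45.2% and 47.7% of the cells in the depleted anti-CTLA-4, depleted isotype, anti-CTLA-4, isotype and saline control libraries. Within T clusters alone the share was 33.3%, 34.1%, 32.4%, 35.4% and 33.9% in the same libraries. Within T clusters the depleted libraries lay below the isotype library, whereas over whole libraries they lay above it. Within B clusters the share was 22.6%, 24.0%, 24.8%, 26.8% and 26.2%, with 78 and 56 B cells in the depleted anti-CTLA-4 and depleted isotype libraries. These few B cells were another mix of clusters: 32 of 78 were germinal centre B-like in the depleted anti-CTLA-4 library, against 166 of 5037 in the anti-CTLA-4 library. Follicular B-like cells alone held 25.5% in the depleted anti-CTLA-4 library, from 20 cells, against 24.7% in the anti-CTLA-4 library.

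The share differed more between cell classes than between libraries. Naive CD8 T-like cells held 36.0%, 36.6%, 35.6%, 38.2% and 36.4% of their UMIs in member genes in the depleted anti-CTLA-4, depleted isotype, anti-CTLA-4, isotype and saline control libraries, and naive CD4 T-like cells 33.5%, 34.7%, 33.1%, 36.0% and 34.1%. Follicular B-like cells held 25.5%, 24.7%, 26.6% and 25.6% in the depleted anti-CTLA-4, anti-CTLA-4, isotype and saline control libraries. Within each library CD8 cells were above CD4 cells, and both T classes were above all B cell values.

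Regulatory T cells (Treg-like) held 26.3%, 27.7%, 25.5%, 27.8% and 26.6% in the depleted anti-CTLA-4, depleted isotype, anti-CTLA-4, isotype and saline control libraries. Experienced CD4 T-like cells held 24.2%, 25.6%, 22.3%, 24.96% and 23.7%, whereas experienced CD8 T-like cells held 35.5%, 35.9%, 35.2%, 38.1% and 36.7%. Treg-like and experienced CD4 cells were thus below naive CD4 cells in every library, and experienced CD8 cells stayed near naive CD8 cells. Over all libraries, cycling T-like cells held 26.5%, Fcrl5-led B cells 27.9%, Lad1-led T cells 31.3% and innate lymphoid-like cells 28.4%. Gamma-delta or innate-like T-like cells held 22.1%, NK-like cells 21.9%, monocyte or macrophage-like cells 20.8% and germinal centre B-like cells 20.8%. Dendritic cells were lower, at 18.3% in plasmacytoid and 16.5% in migratory dendritic-like cells. Plasma cell-like cells, which devote their mRNA to antibody, held 9.47%. Antigen receptor genes took 45.1% of their UMIs, and without receptor and mitochondrial UMIs in the total the share was 17.5%. The large over small subunit ratio of UMIs ranged from 1.12 in naive CD4 T-like cells to 1.29 in plasma cell-like cells.

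**Figure D1:**
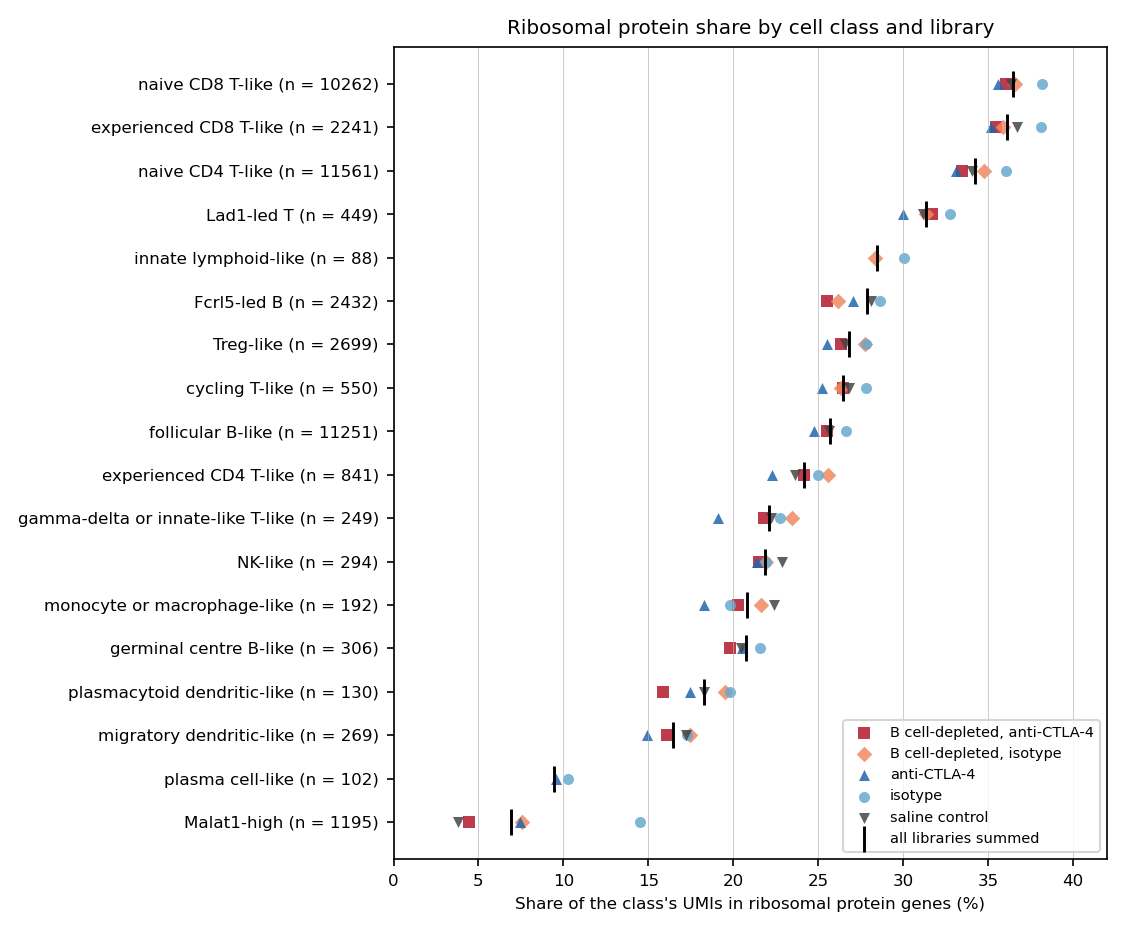
Share of UMIs in ribosomal protein genes (x axis, %) for each cell class (rows, with the number of cells over all libraries), 1 symbol per library with at least 20 cells of the class and a bar for all libraries summed. Naive CD8 T-like cells are at the top at 36.5% and Malat1-high cells at the bottom at 6.90%, and the isotype library is the highest in naive CD8, experienced CD8 and naive CD4 T-like cells.

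A share can fall because the member UMIs fall or because the other UMIs rise, so both are given per cell. The median naive CD4 T-like cell held 1772 member UMIs and 3369 others. The median experienced CD4 T-like cell held 1327 member and 4307 other UMIs. In these cells fewer member UMIs stood beside more other UMIs than in naive CD4 T-like cells. The median cycling T-like cell held 3876 member and 9529.5 other UMIs. The median germinal centre B-like cell held 2692 and 10036, and the median follicular B-like cell 906 and 2709. Cycling T and germinal centre cells therefore held more member UMIs per cell than resting cells of their lineage, while the other UMIs were higher by more. UMIs per cell depend on capture as well as on RNA content, which cannot be told apart here.

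Single cells of a class were spread around its median. The interquartile range of naive CD8 T-like cells was 33.4% to 39.9%, that of follicular B-like cells 22.4% to 28.4%, and that of experienced CD4 T-like cells 20.0% to 27.3%. A separate set of cells lay under 5%: 1310 of the 45115 kept cells (2.90%), with 221 more between 5% and 10%. Of the cells under 5%, 988 (75.4%) were in the Malat1-high clusters, which hold 1195 cells and were led by genes such as Tnik in 1 cluster, the B cell factors Ebf1 and Pax5 in another, and Ikzf2 and Il2ra in the other. The cells under 5% had a median share of Malat1, a long noncoding RNA kept in the nucleus, of 1.62%, against 0.443% in all other cells. Their median mitochondrial share was 3.75%, against 1.85%, and their median UMI count 2546, against 5119. The parts of RNA quality and of cell state in this low share were not tested. The Malat1-high clusters held 4.42%, 7.57%, 7.47%, 14.5% and 3.81% of UMIs in member genes in the depleted anti-CTLA-4, depleted isotype, anti-CTLA-4, isotype and saline control libraries. The isotype value rested on a minority of its 136 cells, of which 69.1% were under 5% and the median was 2.34%. Without doublet removal the same 5 libraries held 5.46%, 7.499%, 6.56%, 4.81% and 3.06%, so the high isotype value was lost.

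**Figure D2:**
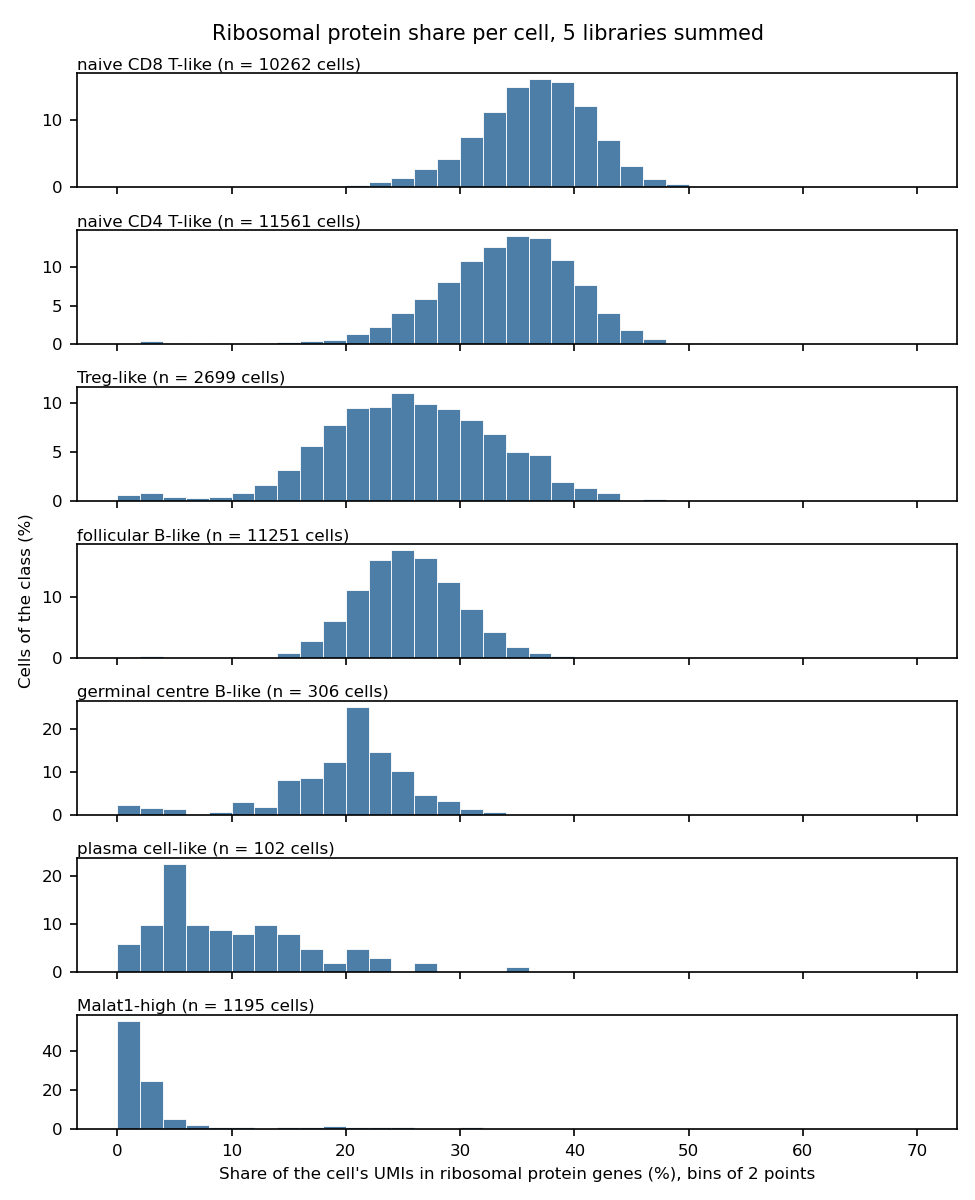
Percent of the cells of a class (y axis) by the share of the cell's UMIs in ribosomal protein genes (x axis, %, bins of 2 points), for 7 classes with the 5 libraries summed. The peak lies farthest right in naive CD8 T-like cells (median 36.8%), lower in follicular B-like cells (25.4%) and lowest in Malat1-high cells (1.83%).

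Members were then compared between classes within the same libraries, with library as a block, on UMIs summed per library and class (edgeR's quasi-likelihood test with Benjamini-Hochberg adjustment over all genes tested, threshold 0.05). The 5 libraries are of different conditions, and a p-value here measures the spread of a class difference over them. In naive CD4 T-like over follicular B-like cells (4 libraries, the depleted anti-CTLA-4 library with only 20 follicular B-like cells), 79 of the 83 members tested were higher and 3 lower. Over all 11760 genes tested 34% were higher and 32.3% lower, and among genes that were neither members nor used for clustering 34% and 28.7%. The median log2 fold change was 0.45 over the core members and 0.01 over all genes.

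Rplp0 and Rplp1 of the P stalk and Rpl5 of the 5S particle had the largest log2 fold changes. Values below are in the depleted anti-CTLA-4, anti-CTLA-4, isotype and saline control libraries, scaled between libraries by TMM, and p-values are from edgeR's quasi-likelihood test. Rplp0 had 81.0, 83.9, 91.9 and 81.7 TMM-scaled UMIs per 10000 in naive CD4 T-like cells, against 46.5, 39.1, 41.0 and 38.4 in follicular B-like cells (log2 fold change 1.04 ± 0.07 (SE), adjusted p = 4.34e-10). Rplp1 had 67.5, 62.8, 74.5 and 70.3 in naive CD4 T-like cells, against 36.2, 32.7, 35.9 and 36.0 in follicular B-like cells (log2 fold change 0.97 ± 0.06 (SE), adjusted p = 2.79e-10). Rplp2, the third stalk protein, had a log2 fold change of 0.74. Rpl5, of the 5S particle, had 20.6, 20.5, 20.6 and 20.0 in naive CD4 T-like cells, against 10.3, 10.6, 9.79 and 9.68 in follicular B-like cells (log2 fold change 1.02 ± 0.07 (SE), adjusted p = 3.91e-10). Its partner Rpl11 differed less, with 0.40 on the log2 scale. Rpl12, which sits at the stalk base, had 43.3, 40.6, 43.6 and 40.3 in naive CD4 T-like cells, against 19.8, 22.2, 23.4 and 21.96 in follicular B-like cells (log2 fold change 0.94 ± 0.07 (SE), adjusted p = 1.51e-09). In each of these members the naive CD4 values of all 4 libraries lay above all follicular B values. Among small subunit members Rps16 had the largest log2 fold change, 0.75, and Rps12 had 0.06 ± 0.06 (SE) and was the only member not called. Rps27l, a paralogue of Rps27 whose human counterpart is induced by p53, went the other way (log2 fold change -0.71 ± 0.08 (SE), adjusted p = 7.50e-07), as did Rps19bp1 (-0.56) and Rpl7l1 (-0.29), a paralogue of Rpl7. Rpl7l1 was no longer called in the DESeq2 test.

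Of the 17 genes of translation factors and other TOP mRNAs, 13 were higher and 1 lower (median log2 0.47), led by Tpt1, a TOP mRNA of a growth-linked protein, at 0.97 ± 0.06 (SE) and, downwards, Nap1l1, a histone chaperone, at -0.99 ± 0.05. Rack1, a small subunit protein under another name, was higher by 0.61, whereas Fau, the precursor of a small subunit protein, had -0.11 ± 0.06 (SE) and was not called. Of the 25 ribosome biogenesis genes 12 were higher and 4 lower, and of the 78 mitochondrial ribosomal protein genes 32 and 12.

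Naive CD8 over naive CD4 T-like cells was a small and nearly general difference. Of 83 members 82 were higher and 1 lower (edgeR's quasi-likelihood test with Benjamini-Hochberg adjustment over all genes tested), where over all 11299 genes 26.3% were higher and 25.5% lower, and 25.6% and 23.5% among genes outside the members and the clustering. The core median was 0.17 on the log2 scale, against 0.00 over all genes. Across the depleted anti-CTLA-4, depleted isotype, anti-CTLA-4, isotype and saline control libraries, Rps18, of the head of the small subunit, had 51.3, 53.1, 45.7, 57.0 and 54.7 TMM-scaled UMIs per 10000 in naive CD8 T-like cells, against 41.8, 43.9, 37.3, 46.5 and 44.2 in naive CD4 T-like cells (log2 fold change 0.29 ± 0.01 (SE), adjusted p = 7.03e-25). Rpl32 had 71.4, 73.2, 67.7, 77.1 and 71.0 in naive CD8 T-like cells, against 58.4, 60.8, 54.9, 63.9 and 58.5 in naive CD4 T-like cells (log2 fold change 0.28 ± 0.01 (SE), adjusted p = 6.59e-25). Rps12 and Rplp1 followed with 0.27 and 0.27 on the log2 scale. The library values of Rps18 overlapped between the classes and those of Rpl32 did not, and for both genes CD8 cells were higher than CD4 cells in all 5 libraries. Rps29, a small zinc-binding protein of the small subunit, was the 1 member called lower (log2 fold change -0.03 ± 0.01 (SE), adjusted p = 0.0184), a call that did not hold without the isotype library or without the depleted isotype library. Without the library block 42 members were called higher and 0 lower. Of the translation factor and TOP list 15 of 17 were higher and 0 lower, with Eef1b2 at 0.30 ± 0.01 (SE) at the top and Eef2 at -0.01 ± 0.01 at the bottom. Of the 25 ribosome biogenesis genes 21 were higher and 2 lower, with Nhp2 at 0.52 ± 0.03 and Polr1a at -0.30 ± 0.05 at the ends. Of the mitochondrial list 41 of 78 were higher and 6 lower. Rack1 was higher by 0.21 and Fau by 0.10.

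In experienced over naive CD4 T-like cells nearly every member fell. Of 83 members 80 were lower and 1 higher (edgeR's quasi-likelihood test with Benjamini-Hochberg adjustment over all genes tested), where 22.7% of all 10553 genes were lower and 23.7% higher, and 21.6% and 20.9% of those outside the members and the clustering genes. The core median was -0.68 on the log2 scale, against -0.03 over all genes, and the core members ranged from -1.09 to -0.21. P stalk and 5S particle members were among them, Rplp0 at -0.82, Rplp1 at -0.68, Rplp2 at -0.73, Rpl5 at -0.98 and Rpl11 at -0.57. In the depleted anti-CTLA-4, depleted isotype, anti-CTLA-4, isotype and saline control libraries, Rps19, a small subunit protein mutated in human Diamond-Blackfan anaemia, had 31.0, 35.5, 26.2, 30.8 and 28.01 TMM-scaled UMIs per 10000 in experienced CD4 T-like cells, against 62.2, 68.2, 59.2, 69.5 and 63.7 in naive CD4 T-like cells (log2 fold change -1.09 ± 0.05 (SE), adjusted p = 9.89e-18). Rps24 had 62.6, 69.8, 59.9, 66.4 and 65.1 in experienced CD4 T-like cells, against 126, 138, 129, 147 and 129.7 in naive CD4 T-like cells (log2 fold change -1.05 ± 0.04 (SE), adjusted p = 2.81e-18). Rpl12 had 24.1, 24.7, 20.0, 21.98 and 21.2 in experienced CD4 T-like cells, against 45.6, 46.2, 42.6, 45.6 and 41.99 in naive CD4 T-like cells (log2 fold change -0.99 ± 0.05 (SE), adjusted p = 5.09e-17). For all 3 members the experienced values lay below every naive value. Rps20, of the small subunit head, fell by 1.00, and the least lowered core member was Rps12 at -0.21.

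The paralogue Rps27l differed. Rps27l had 0.593, 0.676, 0.629, 0.743 and 0.501 TMM-scaled UMIs per 10000 in experienced CD4 T-like cells, against 0.345, 0.348, 0.374, 0.340 and 0.434 in naive CD4 T-like cells (log2 fold change 0.79 ± 0.11 (SE), adjusted p = 3.64e-07). Rps27l was thus the 1 member that rose in these cells, and its counts are low beside those of the core members. Rps19bp1 (0.26) and Rpl7l1 (-0.16) were not called in edgeR's quasi-likelihood test. The translation factor and TOP list had 14 of 17 lower and 1 higher, Tpt1 at -0.75 ± 0.04 (SE) and Nap1l1 at 0.57 ± 0.07 at the ends. Of the 25 ribosome biogenesis genes 21 were lower and 1 higher, with Polr1a, the large subunit of RNA polymerase I, at -1.08 ± 0.15 and Ubtf, a factor for that polymerase, at 0.29 ± 0.08. Rack1 and Fau fell by 0.70 and 0.55. The mitochondrial list showed no common direction, with 14 of 78 lower and 14 higher.

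Treg-like cells were set against the same naive CD4 T-like cells, so this contrast and the one before share their reference. Of 83 members 80 were lower and 1 higher (edgeR's quasi-likelihood test with Benjamini-Hochberg adjustment over all genes tested), where 28% of all 11023 genes were lower and 28.8% higher, and 27.6% and 25.8% of those outside the members and the clustering genes. The core median was -0.49, against -0.02 over all genes. The stalk proteins Rplp0, Rplp1 and Rplp2 were at -0.68, -0.64 and -0.60 on the log2 scale, Rpl5 at -0.78 and Rpl11 at -0.42. In the depleted anti-CTLA-4, depleted isotype, anti-CTLA-4, isotype and saline control libraries, Rps24 had 70.3, 78.8, 71.7, 79.6 and 72.2 TMM-scaled UMIs per 10000 in Treg-like cells, against 124, 135, 127, 145 and 129 in naive CD4 T-like cells (log2 fold change -0.83 ± 0.02 (SE), adjusted p = 2.80e-22). Rpl12 had 26.2, 26.2, 23.5, 25.9 and 22.9 in Treg-like cells, against 44.9, 45.4, 41.99, 45.1 and 41.7 in naive CD4 T-like cells (log2 fold change -0.82 ± 0.02 (SE), adjusted p = 5.60e-21). Rps29 (-0.80), Rpl5 and Rpl8 (-0.76) followed. The Treg values of Rps24 and Rpl12 lay below all naive values. Rps27l had 0.775, 0.892, 0.679, 0.756 and 0.851 in Treg-like cells, against 0.340, 0.342, 0.369, 0.337 and 0.431 in naive CD4 T-like cells (log2 fold change 1.15 ± 0.07 (SE), adjusted p = 2.13e-14). Every Treg value of Rps27l lay above every naive value, and Rpl7l1 and Rps19bp1 were not called.

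The translation factor and TOP list had 14 of 17 lower and 2 higher in Treg-like over naive CD4 T-like cells, with Tpt1 at -0.67 ± 0.02 (SE) and Nap1l1 at 0.59 ± 0.05 at the ends. Rack1 and Fau fell by 0.55 and 0.49 on the log2 scale. Of the 25 biogenesis genes 8 were lower and 4 higher, with Wdr12 at -0.63 ± 0.09 and Ncl, which encodes nucleolin, at 0.39 ± 0.03, and of the mitochondrial list 17 and 19.

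Experienced over naive CD8 T-like cells showed no common direction. Of 83 members 31 were higher, 19 lower and 33 not called (edgeR's quasi-likelihood test with Benjamini-Hochberg adjustment over all genes tested), where 19% of all 10927 genes were higher and 15.8% lower, and 16.3% and 14.8% of those outside the members and the clustering genes. The core median was 0.02, against -0.01 over all genes, with core members between -0.16 and 0.39. Across the depleted anti-CTLA-4, depleted isotype, anti-CTLA-4, isotype and saline control libraries, Rps12, a small subunit protein that in Drosophila takes part in cell competition, had 46.0, 44.6, 41.4, 47.2 and 47.0 TMM-scaled UMIs per 10000 in experienced CD8 T-like cells, against 35.1, 34.1, 31.5, 36.5 and 35.4 in naive CD8 T-like cells (log2 fold change 0.39 ± 0.01 (SE), adjusted p = 1.68e-21). Rps27l had 0.490, 0.601, 0.533, 0.571 and 0.695 in experienced CD8 T-like cells, against 0.355, 0.369, 0.312, 0.399 and 0.455 in naive CD8 T-like cells (log2 fold change 0.61 ± 0.06 (SE), adjusted p = 1.19e-10). For both genes every experienced value lay above every naive value. Rpl29 and Rpl23a were next at 0.21 and 0.17. The lowest was Rpl35a, a large subunit protein (log2 fold change -0.16 ± 0.02 (SE), adjusted p = 1.23e-10). Rpl7, Rps3a1 and Rps24 were also lower, at -0.12, -0.11 and -0.10. The 5S protein Rpl5 was at -0.07 and Rpl11 at -0.01, and of the stalk Rplp0 at 0.05, Rplp1 at -0.02 and Rplp2 at 0.04. The counts depended on the fit: without the library block 7 members were higher and 0 lower, with all genes of at least 1 count kept 20 were higher and 30 lower, and without the depleted anti-CTLA-4 library 11 were lower. Of the translation factor and TOP list 5 were higher and 3 lower, with Npm1, a nucleolar chaperone, at 0.21 ± 0.02 (SE) and Tpt1 at -0.11 ± 0.01 at the ends. Of the 25 biogenesis genes 5 were higher and 2 lower, and of the mitochondrial list 7 and 3. Fau was at -0.11 and Rack1 at 0.06.

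Germinal centre B cells divide rapidly while they mutate their antibody genes. In germinal centre over follicular B-like cells (32, 166, 65 and 24 germinal centre cells in the depleted anti-CTLA-4, anti-CTLA-4, isotype and saline control libraries), 59 of 83 members were lower and 2 higher (edgeR's quasi-likelihood test with Benjamini-Hochberg adjustment over all genes tested). Over all 9206 genes 22.8% were lower and 24.9% higher, and 18.8% and 25.9% of those outside the members and the clustering genes. The core median was -0.47 on the log2 scale, against -0.03 over all genes. In the same 4 libraries, Rps27, a zinc-finger protein of the small subunit, had 12.9, 12.9, 14.4 and 13.0 TMM-scaled UMIs per 10000 in germinal centre B-like cells, against 25.6, 32.7, 43.6 and 41.2 in follicular B-like cells (log2 fold change -1.40 ± 0.12 (SE), adjusted p = 3.60e-05). Rps24 had 37.7, 40.2, 43.0 and 36.8 in germinal centre B-like cells, against 80.6, 94.3, 104 and 96.9 in follicular B-like cells (log2 fold change -1.25 ± 0.07 (SE), adjusted p = 3.48e-06). Rps27rt, which may share reads with Rps27, was at -1.51, and Rps21 and Rps29 at -0.97 and -0.97. For Rps27 and Rps24 every germinal centre value lay below every follicular value. Of the stalk proteins Rplp1 was at -0.47, Rplp2 at -0.26 and Rplp0, not called, at 0.18. Of the 5S particle Rpl11 was at -0.47 and Rpl5, not called, at 0.00. Rps27l had 1.77, 1.61, 2.33 and 1.74 in germinal centre B-like cells, against 1.21, 0.573, 0.633 and 0.667 in follicular B-like cells (log2 fold change 1.45 ± 0.19 (SE), adjusted p = 4.35e-04). Rps27l was higher in all 4 libraries. The count of members higher was 1 without the isotype library and 4 without the depleted anti-CTLA-4 library. With at least 50 cells per class required, which leaves only the anti-CTLA-4 and isotype libraries, it was 8.

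Other gene groups moved differently in germinal centre cells. Of the 78 mitochondrial ribosomal protein genes 56 were higher and 0 lower (median log2 0.70), and of the 25 ribosome biogenesis genes 12 were higher and 1 lower (median 0.49), led by Nhp2, of the particles that modify ribosomal RNA, at 1.47 ± 0.16 (SE) and with Rrn3 lowest at -0.76 ± 0.17. The translation factor and TOP list had 4 higher and 3 lower of 17, with Nap1l1 at 1.45 ± 0.13 and Tpt1 at -0.56 ± 0.07 at the ends. Fau fell by 0.84, while Rack1 (-0.09 ± 0.09) was not called.

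Cycling T-like cells were set against the T cells of all other clusters. Of 83 members 70 were lower and 6 higher (edgeR's quasi-likelihood test with Benjamini-Hochberg adjustment over all genes tested), where 25.2% of all 12212 genes were lower and 26.4% higher, and 23.7% and 26.1% of those outside the members and the clustering genes. The core median was -0.48, against -0.05 over all genes. Across the depleted anti-CTLA-4, depleted isotype, anti-CTLA-4, isotype and saline control libraries, Rps27 had 15.1, 15.9, 14.4, 18.7 and 17.4 TMM-scaled UMIs per 10000 in cycling T-like cells, against 33.2, 39.8, 32.4, 44.0 and 41.9 in other T cells (log2 fold change -1.23 ± 0.04 (SE), adjusted p = 1.52e-13). Rps24 had 58.1, 58.4, 59.0, 61.6 and 56.1 in cycling T-like cells, against 116, 125, 116, 134 and 121 in other T cells (log2 fold change -1.06 ± 0.03 (SE), adjusted p = 5.41e-14). Rps27rt, Rps29 and Rpl30 were at -1.28, -0.88 and -0.86. For Rps27 and Rps24 the cycling values lay below all values of other T cells. The stalk proteins Rplp0, Rplp1 and Rplp2 were at -0.25, -0.48 and -0.48, and Rpl5 and Rpl11 at -0.58 and -0.34. Rps27l had 1.49, 1.87, 1.33, 2.31 and 1.47 in cycling T-like cells, against 0.449, 0.496, 0.469, 0.491 and 0.589 in other T cells (log2 fold change 1.76 ± 0.10 (SE), adjusted p = 6.43e-10). Rps12 had 43.7, 45.5, 36.3, 42.8 and 43.5 in cycling T-like cells, against 35.2, 35.1, 31.5, 36.6 and 35.8 in other T cells (log2 fold change 0.28 ± 0.03 (SE), adjusted p = 3.82e-06). Rps19bp1, Rps2 and Rpl41 were also higher, at 0.53, 0.22 and 0.15. Every cycling value of Rps27l lay above every value of other T cells. Of the 78 mitochondrial ribosomal protein genes 62 were higher and 4 lower (median log2 0.46), of the 25 biogenesis genes 5 and 5, with Nhp2 at 0.80 ± 0.11 (SE) and Polr1a at -0.67 ± 0.15 at the ends, and of the translation factor and TOP list 4 and 6, with Nap1l1 at 1.65 ± 0.07 and Tpt1 at -0.85 ± 0.03. Fau and Rack1 fell by 0.66 and 0.34. Cycling cells also held more of the markers of antigen-experienced T cells than naive cells (33.1 UMIs per 10000, against 2.85 in naive CD4 and 13.8 in naive CD8 T-like cells). The other T cells of this contrast include experienced and Treg-like classes as well as naive ones. The part of division and of past activation in the result was not tested.

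**Figure D3:**
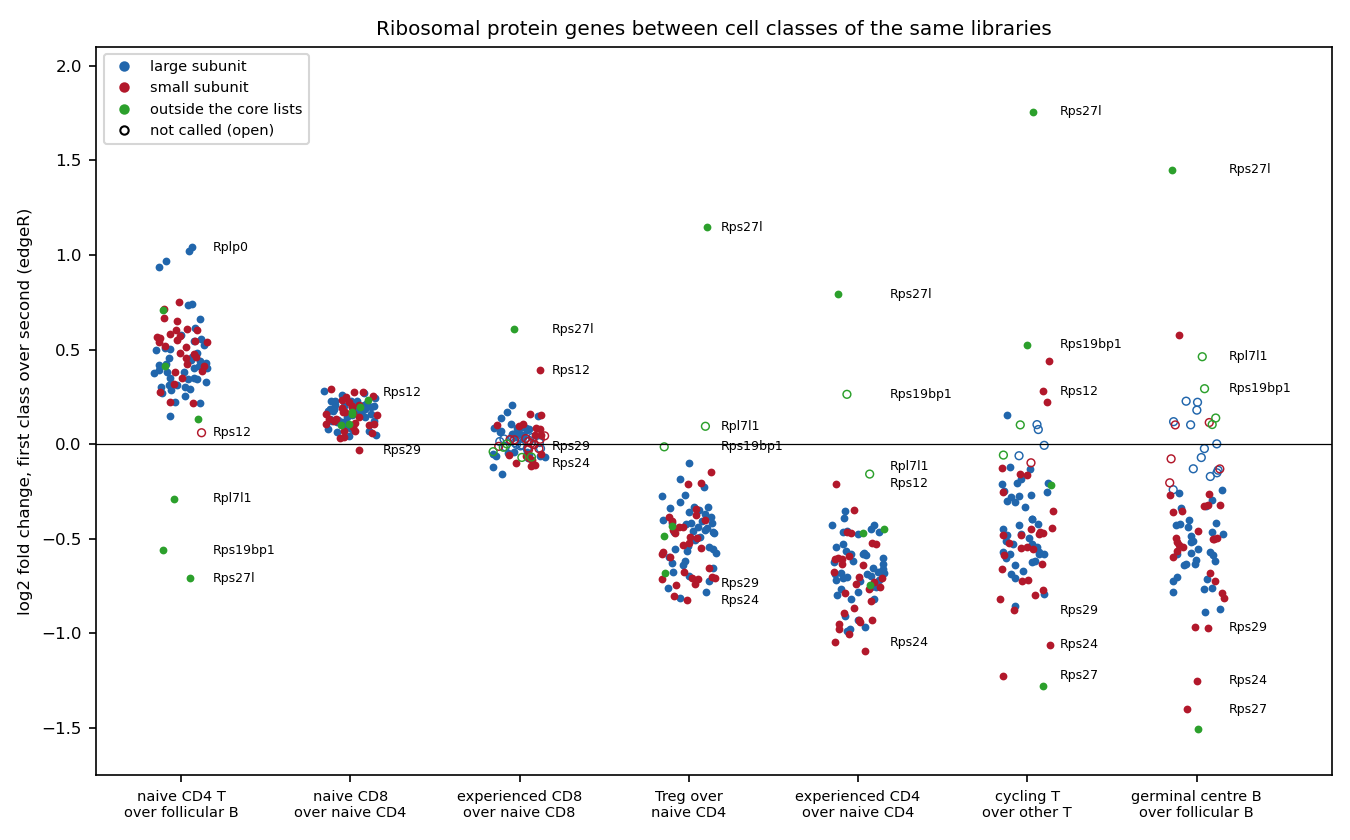
log2 fold change (y axis, edgeR) of each of the 83 members tested in 7 contrasts between cell classes, 1 point per member, coloured by subunit, with open points for members not called at the threshold 0.05. The core members lie together above 0 in the T over B contrast (median 0.45) and below 0 in the experienced CD4 contrast (-0.68), and Rps27l is the highest point in the Treg, experienced CD4, experienced CD8, cycling and germinal centre contrasts.

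The make-up of the pool itself, as UMIs of a member per 1000 member UMIs of a class, differed between classes to an extent that depended on the member. In 44 of 77 core members the highest class mean was at least 1.5 times the lowest, and the median of this ratio was 1.6. It was 1.17 for Rpl18, 1.24 for Rpl17 and 1.254 for Rpl23, the 3 members with the smallest spread. These class means weight the libraries equally and leave out the Malat1-high clusters. The same count was not made over other genes, so 44 of 77 has no background here. The plasma cell-like and innate lymphoid-like means rest on 2 libraries. Rps27l had the largest spread. It had 3.37 and 3.43 per 1000 in plasma cell-like cells of the anti-CTLA-4 and isotype libraries, and 2.61, 2.39, 3.31, 2.23 and 3.35 in migratory dendritic-like cells of the depleted anti-CTLA-4, depleted isotype, anti-CTLA-4, isotype and saline control libraries, against 0.0971, 0.0917, 0.107, 0.0852 and 0.119 in naive CD4 T-like cells. Both classes lay above every naive CD4 value, and the highest mean was 34.0 times the lowest. Rpl36al, a paralogue of Rpl36a, had 11.8 and 12.002 per 1000 in plasma cell-like cells of the same 2 libraries, against 2.02, 2.13, 2.06, 2.15 and 2.13 in experienced CD8 T-like cells of the depleted anti-CTLA-4, depleted isotype, anti-CTLA-4, isotype and saline control libraries. Rpl10, which joins the large subunit late, was also highest in plasma cells, at 23.5 ± 1.15 (SD, n = 2 libraries), against 9.11 ± 0.400 (SD, n = 5) in naive CD4 T-like cells.

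Dendritic cells had makeups of their own. Rpl31, a protein beside the exit tunnel, had 9.19, 9.37, 8.42, 8.37 and 9.58 UMIs per 1000 member UMIs in plasmacytoid dendritic-like cells of the depleted anti-CTLA-4, depleted isotype, anti-CTLA-4, isotype and saline control libraries, against 1.95, 1.97, 1.93, 2.01 and 2.13 in naive CD4 T-like cells. No other class mean of Rpl31 reached the lowest of these plasmacytoid values. Rps19 had 34.2 ± 1.87 (SD, n = 5 libraries) in migratory dendritic-like cells, against 10.4 ± 0.686 in plasmacytoid dendritic-like cells, and Rpsa 41.5 ± 3.56 against 16.8 ± 0.889. Rpl12 was lowest in migratory dendritic-like cells, at 4.45 ± 0.810, against 12.02 ± 0.579 in naive CD4 T-like cells (n = 5 each). Rps12 had 16.4 ± 0.982 in cycling T-like cells, against 8.82 ± 0.337 in naive CD4 T-like cells (n = 5 each). Among the rarer members, Rpl22l1, a paralogue of Rpl22, which mice need for T cell development, had 3.79 ± 0.139 in cycling T-like cells, against 1.74 ± 0.161 in migratory dendritic-like cells (n = 5 each). Rps19bp1 had 0.218 ± 0.0515 (n = 2) in plasma cell-like cells, against 0.0435 ± 0.00234 (n = 5) in naive CD4 T-like cells, and 2 UMIs in all in innate lymphoid-like cells, too few to give a level. Rpl7l1 had 0.368 ± 0.0633 (n = 4) in germinal centre B-like cells, against 0.116 ± 0.00380 (n = 5) in naive CD4 T-like cells, and 0.945 ± 0.494 (n = 5) in the Malat1-high clusters. The clusters were made without member genes, but the members of a class were measured in the cells that were clustered, so these values are descriptions with no test.

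**Figure D4:**
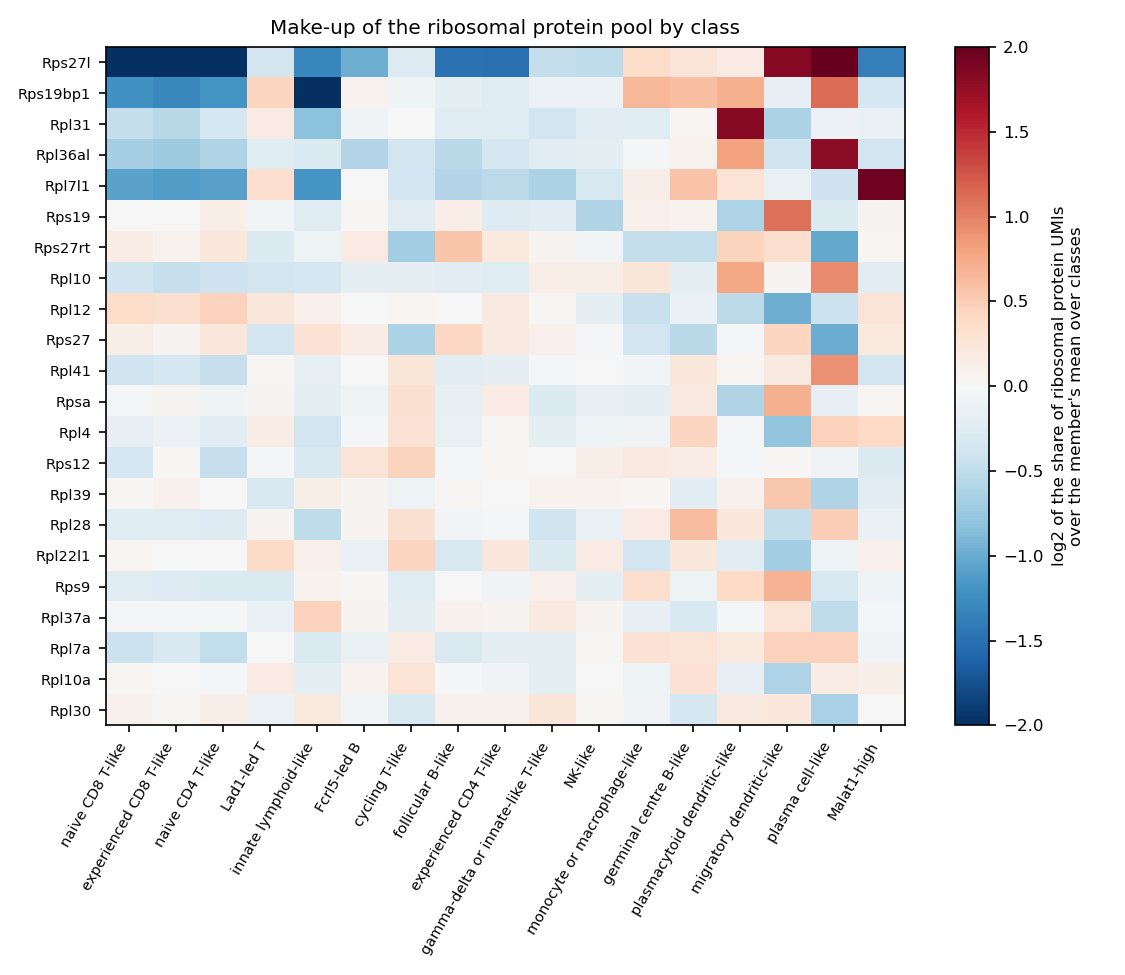
Heat map of the ribosomal protein pool: rows are members of large spread, columns cell classes, and colour is log2 of the member's share of all member UMIs in the class over its mean over classes, with limits at -2 and 2 and values beyond drawn at the limit. Rps27l spans the whole range, Rpl31 stands out in plasmacytoid dendritic-like cells (8.99 per 1000) and Rpl36al in plasma cell-like cells (11.9 per 1000).

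Between libraries, each member was compared within 4 classes as the ratio of its UMIs per 10000 of the class, without a test. In the anti-CTLA-4 over the isotype library the summed share was 24.7% against 26.6% in follicular B-like cells, a ratio of 0.930 (0.928 to 0.931), with its 95% counting interval. The ratio was 0.920 (0.918 to 0.921) in naive CD4 T-like, 0.917 (0.914 to 0.920) in Treg-like and 0.931 (0.930 to 0.933) in naive CD8 T-like cells. The share of mitochondrial UMIs differed as well and was 1.99% in the anti-CTLA-4 library and 0.977% in the isotype library in naive CD4 T-like cells, and its part in the result was not tested. Naive CD8 T-like cells of 2000 to 4000 UMIs had a median member share of 35.8% in the anti-CTLA-4 and 36.2% in the isotype library. At 4000 to 8000 UMIs the medians were 36.0% and 38.5%, and from 8000 UMIs 35.4% and 38.7%. The part of UMIs per cell was not tested. Lower, at a ratio of 0.8 or below, were 11 of 83 members with at least 100 UMIs in follicular B-like cells (all genes 3.22%), 11 of 83 in naive CD4 T-like (all genes 2.72%), 10 of 82 in Treg-like (all genes 5.22%) and 12 of 83 in naive CD8 T-like cells (all genes 2.41%). With median-ratio size factors 18 were lower in naive CD4 and 17 in Treg-like cells, and with UMIs outside the members as the total 17 in naive CD4 cells. All genes were not counted under these scalings, so the shares above are no background for these counts. Higher, past the inverse of that ratio, were 0 members in each class, beside 5.91%, 8.48%, 13.7% and 7.7% of all genes in the same 4 classes.

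Rps28, a small subunit protein near the mRNA exit, had 13.0 UMIs per 10000 in the anti-CTLA-4 library, against 17.6 in the isotype library (ratio 0.740, interval 0.726 to 0.754) in follicular B-like cells. In naive CD4 T-like cells Rps28 had 18.9 UMIs per 10000 in the anti-CTLA-4 library, against 25.9 in the isotype library (ratio 0.732, interval 0.718 to 0.747), and in Treg-like cells 12.5 UMIs per 10000 in the anti-CTLA-4 library, against 17.9 in the isotype library (ratio 0.6997, interval 0.667 to 0.734). The 3 classes gave nearly the same ratio for a gene whose level differed between them. Rps29 had 24.3 UMIs per 10000 in the anti-CTLA-4 library, against 33.7 in the isotype library (ratio 0.722, interval 0.709 to 0.735) in naive CD4 T-like cells. Rps21, of the small subunit, had 22.9 UMIs per 10000 in the anti-CTLA-4 library, against 31.1 in the isotype library (ratio 0.738, interval 0.726 to 0.751) in naive CD8 T-like cells. In all, 12 members passed the threshold in at least 1 class and 10 in all 4: Rpl35, Rpl36, Rpl37, Rpl37a, Rpl38, Rpl41, Rps21, Rps27rt, Rps28 and Rps29, at ratios between 0.699 and 0.798. Rps27 passed in 3 classes and Rpl34 in 1. Over the classes, the highest ratio of a core member was 1.03 times its lowest in the median and 1.14 times at most. The member with the highest ratio in naive CD4 T-like cells had a log2 ratio of 0.21 there, and 12 of 83 members had a ratio over 1. With the saline control library in the place of the isotype library, chosen after the data were seen, 10, 9, 11 and 7 members were lower in follicular B-like, naive CD4 T-like, Treg-like and naive CD8 T-like cells. Of the genes outside the members, 466, 382, 442 and 361 were lower in the same classes. All genes tested numbered 9558, 8781, 5980 and 8865. Both comparisons use the same anti-CTLA-4 library.

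The same antibodies were compared in B cell-depleted mice, in 2 libraries that the comparison above did not use. In the depleted anti-CTLA-4 over the depleted isotype library the share ratio was 0.963 (0.962 to 0.964) in naive CD4 T-like, 0.949 (0.947 to 0.952) in Treg-like and 0.985 (0.984 to 0.986) in naive CD8 T-like cells. Lower, at a ratio of 0.8 or below, were 0, 1 and 0 members in these classes (all genes 1.96%, 4.05% and 2.25%), and higher 0 in each (all genes 4.79%, 7.84% and 3.99%). With median-ratio size factors, or with UMIs outside the members as the total, 5 members were lower in Treg-like cells, and all genes were not counted this way. The 1 member was Rps28, with 12.7 UMIs per 10000 in Treg-like cells of the depleted anti-CTLA-4 library, against 15.9 in the depleted isotype library (ratio 0.794, interval 0.766 to 0.824). The 10 members named above had ratios between 0.794 and 1.02 in these libraries. Rps29 had 0.838 to 0.866 over the 3 classes, Rps21 0.841 to 0.859 and Rpl41 0.845 to 0.858. Rps27rt was above 1 in naive CD4 and naive CD8 T-like cells, the other 9 were below 1 in all 3 classes, and each of the 10 was nearer to 1 than in mice with B cells in the same class. The 10 were chosen for their low ratios in mice with B cells, so ratios nearer to 1 in another pair can follow from that choice alone. That difference between the 2 pairs of libraries was not tested. Whether the libraries or the antibodies set these ratios cannot be told apart with 1 library per group.

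In the isotype over the saline control library the share ratio was 1.038 (1.037 to 1.040) in follicular B-like, 1.058 (1.056 to 1.060) in naive CD4 T-like, 1.047 (1.043 to 1.051) in Treg-like and 1.050 (1.049 to 1.052) in naive CD8 T-like cells, with 0 members higher (all genes 5.04%, 3.8%, 6.08% and 3.7%) and 0, 1, 0 and 0 lower (all genes 6.82%, 7.25%, 12.9% and 6.58%). The 1 member was Rps27l, with 0.307 UMIs per 10000 in naive CD4 T-like cells of the isotype library, against 0.405 in the saline control library (ratio 0.759, interval 0.642 to 0.895, 247 and 356 UMIs). The 10 members named above had ratios between 0.960 and 1.08. Over all kept cells mitochondrial UMIs were 1.02% in the isotype and 1.79% in the saline control library, and their part in these ratios was not tested.

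B cell depletion was compared under each antibody, in comparisons that share libraries with those above. In the depleted isotype over the isotype library the share ratio was 0.964 (0.963 to 0.966) in naive CD4 T-like, 0.997 (0.994 to 1.000) in Treg-like and 0.959 (0.957 to 0.960) in naive CD8 T-like cells. In the depleted anti-CTLA-4 over the anti-CTLA-4 library it was 1.010 (1.008 to 1.011), 1.032 (1.029 to 1.035) and 1.014 (1.012 to 1.015) in the same classes. Over all kept cells mitochondrial UMIs were 2.08% in the depleted isotype library against 1.02% in the isotype library, and 2.09% in both anti-CTLA-4 libraries. The member share also varied with UMIs per cell. The parts of mitochondrial UMIs and of UMIs per cell in these ratios were not tested. No member passed the threshold in either direction in any of the 3 classes. Over all genes 7.53%, 8.97% and 8.86% were higher and 3.45%, 7.29% and 2.82% lower under isotype IgG, and 5.28%, 6.13% and 5.49% higher and 3.58%, 8.66% and 3.63% lower under anti-CTLA-4. For the 10 members named above the ratios lay between 0.812 and 0.965 under isotype IgG and between 0.965 and 1.23 under anti-CTLA-4. These members were chosen by their values in the isotype and anti-CTLA-4 libraries, the references here, so such ratios can follow from that choice.

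**Figure D5:**
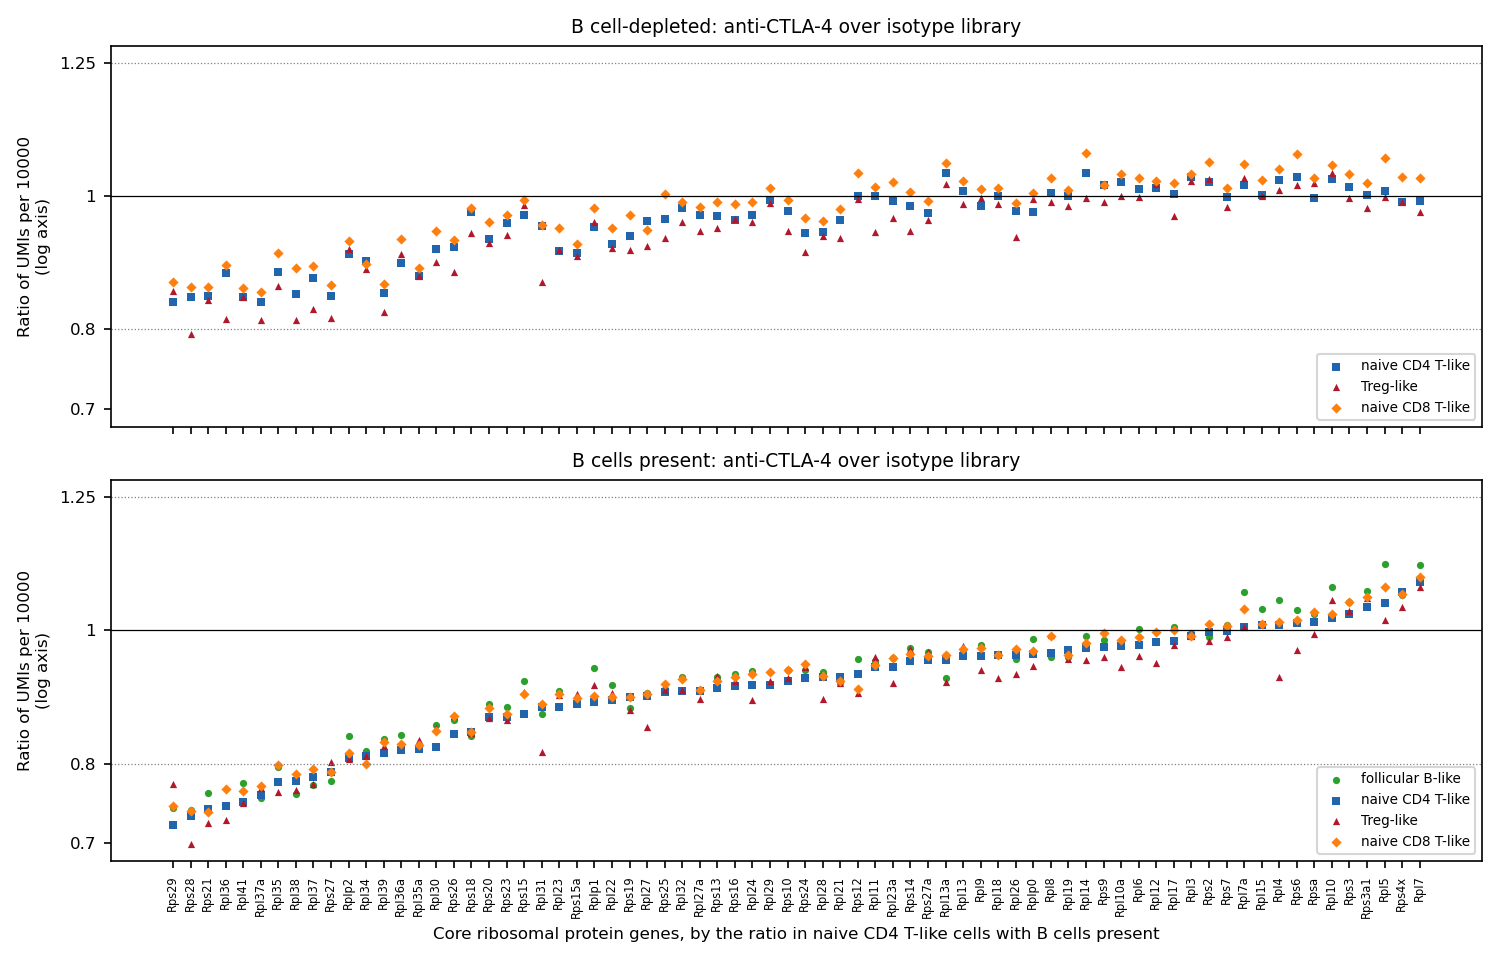
Ratio of UMIs per 10000 (y axis, log) of the core members shown (x axis) in the anti-CTLA-4 over the isotype library, in B cell-depleted mice (top) and in mice with B cells (bottom), 1 symbol per cell class, with dotted lines at a ratio of 0.8 and its inverse. The classes give nearly the same ratio for a member, and Rps29, Rps28 and Rps21 are at the low end in mice with B cells.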

How the data were processed

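The study deposited, per the labels, 5 single-cell expression libraries and 3 libraries of B cell receptors, and the receptor libraries were not analysed here. The authors' deposited matrices hold UMI counts per gene and barcode, written by Cell Ranger 7.0.1 according to the file headers, on the genome mm10 with reads from bcl2fastq 2.20.0 per the submitters' processing notes. Barcodes with at least 500 genes and at most 10% mitochondrial UMIs were kept, and the share of mitochondrial UMIs is given by library and beside some results. Scrublet's own threshold marked 3, 0, 516, 379 and 315 barcodes of the depleted pair (anti-CTLA-4 then isotype), of the anti-CTLA-4 and isotype libraries, and of the saline control library, so the highest scores were removed instead, at 0.8% per 1000 barcodes. Barcodes shared by libraries were kept, since they were counted per library.

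Scrublet was run in scanpy 1.11.5. Cells were clustered with leidenalg 0.10.2 (2000 genes, 30 components, 15 neighbours, Leiden resolution 1, seed 0) without member, -ps, antigen receptor and mitochondrial genes. CD4 T cells were then clustered again. Classes were named from marker lists, with naming thresholds set after the clusters were seen. The members, gene lists and tests were chosen with earlier results of these data known. Class contrasts used edgeR 4.0.16 (quasi-likelihood test, TMM scaling, filterByExpr, library as a block, Benjamini-Hochberg adjustment over all genes tested, threshold 0.05) in R 4.3.3 on summed counts of classes with at least 20 cells in a library, and DESeq2 1.42.0 was an alternative. The code was tested on simulated data. The p-values measure the spread between these libraries, since no label gives separate animals. Library ratios use classes with at least 50 cells in both libraries and genes with at least 100 UMIs, and their intervals cover counting error only. Named were the 10 members of highest level, the 5 called highest and the 5 called lowest per contrast, the 3 highest and the 3 lowest past 1.25-fold per class and library comparison, members outside the core lists with at least 100 UMIs, the P stalk and 5S particle, and of the other lists the ends, Fau and Rack1. Some genes and one split of a class are not reported here.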

Additional observations from a re-analysis of the deposited data

Results flagged for a closer look

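The summed ribosomal protein share was compared between the depleted libraries and those with B cells. Its ratios lay on opposite sides of 1 under the 2 antibodies in all 3 T cell classes, which drew attention to them. In naive CD4 T-like cells the depleted anti-CTLA-4 library held 1.00968 times the share of the anti-CTLA-4 library, and the depleted isotype library 0.964209 times the share of the isotype library. In Treg-like cells the ratios were 1.03193 under anti-CTLA-4 and 0.996736 under isotype IgG. The latter was close to 1 (counting interval 0.994 to 1.000), with 38 members over 1 and 44 under 1. In naive CD8 T-like cells they were 1.01371 under anti-CTLA-4 and 0.95851 under isotype IgG. With 1 library per group the difference between the ratios was not tested. The isotype library, the reference of the ratios below 1, also had the lowest mitochondrial share of the 5 libraries, and the part of that in these ratios was not tested. In naive CD8 T-like cells of 2000 to 4000 UMIs the median share was 37.2% in the depleted isotype and 36.2% in the isotype library. At 4000 to 8000 UMIs the medians were 37.2% and 38.5%, and from 8000 UMIs 36.6% and 38.7%. The part of UMIs per cell in these ratios was not tested.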

How the results depend on the processing

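Of 674 alternative values of the 53 named log2 fold changes, 664 kept direction and call, 10 were no longer called and 0 reversed. Of 84 alternative values of the 14 named library ratios, 69 stayed within the counting interval and 0 reversed. The named values were chosen as the extremes of these same data, which favours such stability. Of 424 alternative counts of members, 380 stayed within 1.5 times the main count and 44 lay further off. The share by library is given in the order depleted anti-CTLA-4, depleted isotype, anti-CTLA-4, isotype and saline control. It was 31.95%, 32.84%, 28.25%, 30.50% and 29.99% with at least 1000 genes per barcode, 31.89%, 32.89%, 28.04%, 30.39% and 29.76% without doublet removal, and 31.74%, 32.66%, 28.06%, 30.27% and 29.76% for core members alone. Without antigen receptor and mitochondrial UMIs in the total it was 32.78%, 33.72%, 29.18%, 31.36% and 30.79%, and as a median over cells 33.66%, 34.56%, 27.51%, 29.40% and 28.47%. Over all deposited barcodes it was 31.85%, 28.01%, 30.38% and 29.75% in the libraries other than depleted isotype.

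Without the replicate block (library), 42 members were higher and 0 lower in CD8 over CD4, and 7 higher and 0 lower in experienced CD8. With all genes of at least 1 count kept, 2 members were higher in Treg over CD4, and 20 were higher and 30 lower in experienced CD8. In experienced CD8, 11 were lower by DESeq2, 8 at Leiden resolution 2 and 11 to 20 when each library was left out. In CD8 over CD4, 0 to 1 members were lower when each library was left out. In germinal centre over follicular cells, 1 to 4 were higher when each library was left out, 5 at Leiden resolution 2 and 4 without doublet removal. With at least 50 cells per class, in the anti-CTLA-4 and isotype libraries only, 8 were higher.

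At a fold of 1.5 between libraries, 0 members were lower in anti-CTLA-4 over isotype in each of the 4 classes, 0 in the depleted pair in Treg-like cells and 0 in isotype over saline control in naive CD4 T-like cells. With no UMI minimum, isotype over saline control had 2 lower in naive CD4, 1 higher in Treg-like and 1 higher in naive CD8 cells, and anti-CTLA-4 over isotype 1 higher in follicular B and 1 in naive CD4 cells. Depleted isotype over isotype then had 2 lower in Treg-like cells, depleted anti-CTLA-4 over anti-CTLA-4 1 lower in naive CD4 and 1 higher in naive CD8 cells, and depleted anti-CTLA-4 over depleted isotype 1 higher in naive CD4 and 1 in Treg-like cells. With a minimum of 20 UMIs, isotype over saline control had 1 higher and depleted isotype over isotype 1 lower in Treg-like cells. With UMIs outside the members as the total, 17 were lower in naive CD4 cells in anti-CTLA-4 over isotype and 5 in Treg-like cells of the depleted pair; with median-ratio size factors, 18 in naive CD4 and 17 in Treg-like cells, and 5 in the depleted pair. In the depleted pair, 1 was higher in Treg-like and 1 in naive CD8 cells without doublet removal, and 1 in Treg-like cells at Leiden resolution 2. With the saline control library as the reference, an alternative chosen after seeing the data, 7 were lower in naive CD8 cells. There 361 genes outside the members were lower, among 8865 genes tested in all. Apart from the saline control reference, all genes were not counted under these alternatives. The causes of these changes were not tested. Depth limits the rare members most: Rps27l, Rpl7l1 and Rps19bp1 had under 1 UMI per 10000, and germinal centre and plasma cells were few.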
